A study of Mus musculus with 43 samples.

Results

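Amino acid transporters move amino acids across the plasma membrane and out of the lysosome. The genes described here are the 43 genes of 19752 on the array whose symbol starts with Slc1a, Slc3a, Slc7a, Slc36a, Slc38a or Slc43a. Each was measured by the brightest of its probe sets that carry exactly 1 gene symbol. They are 42 transporter or transporter partner genes and Slc7a6os, which the name pattern also takes in: it lies on the strand opposite Slc7a6 and is not a transporter. RNA was measured in 43 samples of immune cells, each type defined by its surface markers, from male C57BL/6 mice aged 6 weeks. The 26 baseline samples had no injection named in their labels. The 17 interferon samples came 2 h after a subcutaneous dose of 10000 U interferon alpha, a type I interferon cytokine that cells release against viruses. The 9 cell types were dendritic cells, neutrophils, natural killer (NK) cells, natural killer T (NKT) cells and CD4, CD8, gamma-delta and regulatory T cells of the spleen, with macrophages of the peritoneal cavity. No genetic change is named for any group, and no vehicle injection is named for the baseline mice. A type had 3 baseline and 2 interferon arrays, except neutrophils with 2 of each and macrophages with 1 interferon array.

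As background, lymphocytes that start to divide take up leucine and glutamine in large amounts. Leucine enters mainly through heterodimers in which the heavy chain Slc3a2 (CD98) carries a light chain of the Slc7 family to the membrane, and these exchangers spend intracellular glutamine to bring leucine in. Inside the lysosome, amino acids signal to the growth kinase mTORC1, and transporters such as Slc36a1 and Slc38a9 sit at that membrane. Myeloid cells are known for other members: arginine uptake by Slc7a2 feeds nitric oxide synthesis in macrophages, and Slc7a11 brings in cystine for glutathione.

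The values are array intensities, given here as log2, so a difference of 1 is a 2-fold change. Differences were tested with limma on all 19752 genes and all 43 arrays, and a gene passed where its Benjamini-Hochberg adjusted p was under 0.05. The number of arrays limits the precision. A lack of overlap between the arrays of the 2 groups of a type was common. By type, all interferon arrays lay below all baseline arrays for between 11.6% (CD4 T cells) and 28.6% (NKT cells) of all genes. They lay above for between 10.7% (gamma-delta T cells) and 29.6% (neutrophils). Array medians lay between 105 and 125 intensity units. Of the 43 arrays, 41 were most similar to another array of their own cell type, and the lowest correlation within a group was 0.951. The labels of 4 arrays conflict on the tissue: CD8 T cell baseline arrays 1 and 2 and macrophage baseline arrays 1 and 2. Baseline arrays 1 and 2 of every type also carry a preparation wording that no other array has, so treatment is partly confounded with preparation. In neutrophils both baseline arrays carry it, so within that type treatment and preparation cannot be told apart, and a value with a preparation term borrows that term from the other types. The labels do not say that the arrays of a group came from separate animals, so p-values measure the spread between these samples, which may be technical. In bulk RNA, fewer cells that express a gene and less RNA of it per cell cannot be told apart. Levels are compared within a gene only, since 2 probe sets have different brightness at the same RNA level. A log2 level of 7 in at least 2 arrays was reached by 26 of the 43 genes (60.5%), against 12349 of all 19752 genes (62.5%).

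At baseline most of the transporter genes that stood apart by 2-fold did so in macrophages or neutrophils, the types in which the most genes of the whole array did so. The level differed among the types for 25 of the 43 genes (58.1%) by limma's F test, against 56.4% of all genes. Macrophages stood at least 2-fold above the mean of the other 8 types for 5 genes (6.16% of all genes did so): Slc7a2, Slc7a8, Slc7a7, Slc38a6 and Slc36a4. Neutrophils stood at least 2-fold below for 6 genes (10.1% of all genes): Slc38a1, Slc1a5, Slc7a6, Slc7a5, Slc7a1 and Slc3a2. They stood above for 1 gene, Slc7a11 (6.03% of all genes). Dendritic cells were at least 2-fold above the others for 3 genes (4.84%): Slc7a7, Slc38a2 and Slc38a9. The remaining passes of this size were Slc7a6 above in CD8 T cells (1.81%), Slc7a7 and Slc7a8 below there (2.68%), Slc7a8 below in CD4 T cells (2.35%) and Slc43a2 below in NK cells (2.3%).

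**Figure D1:**
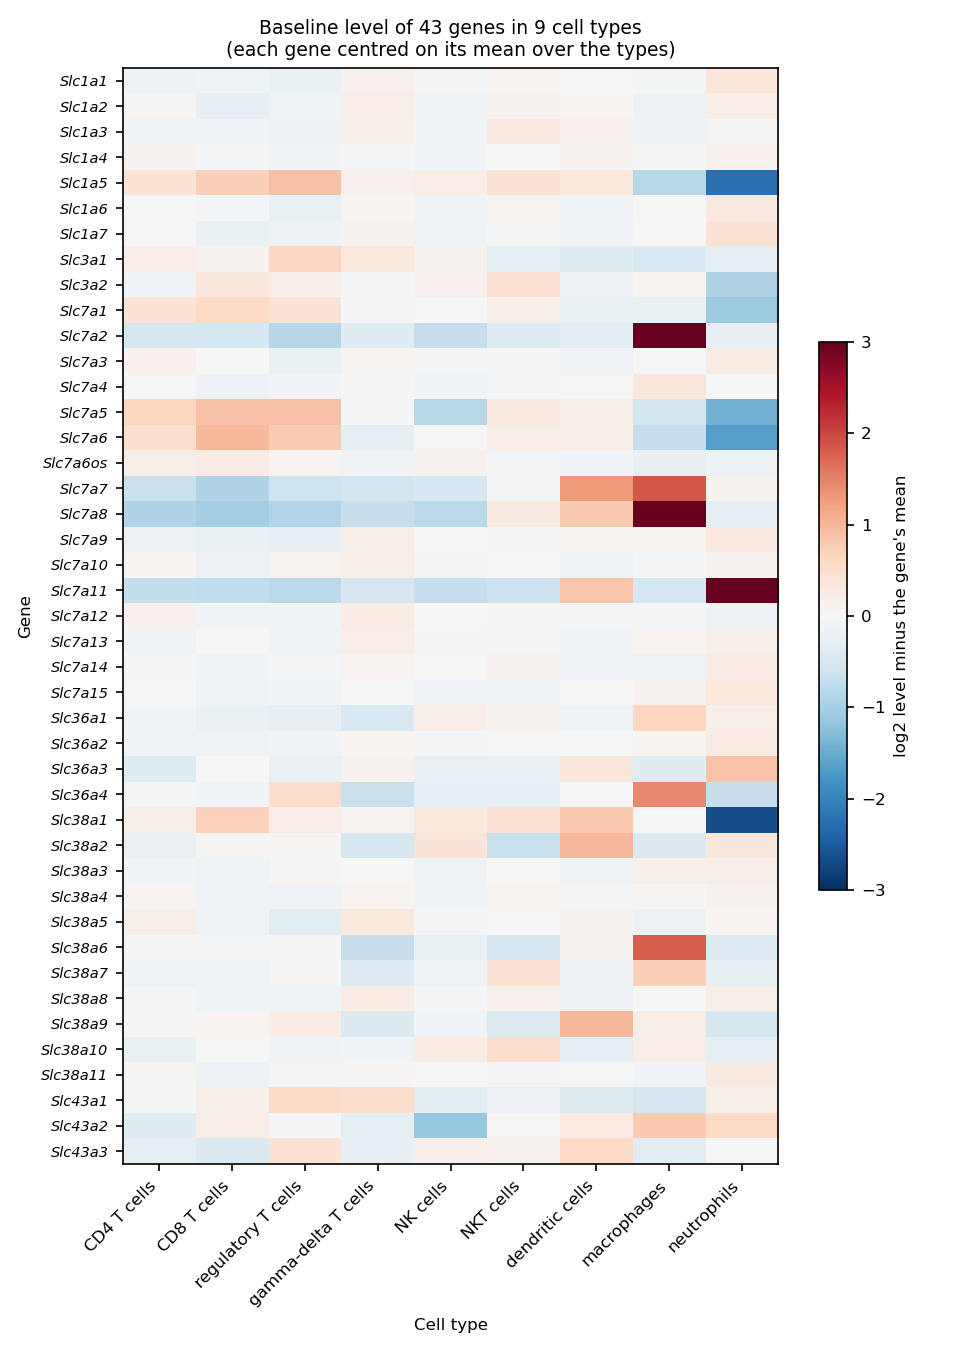
Baseline log2 level of each of the 43 genes (rows) in 9 cell types (columns, mean of 2 or 3 arrays), centred on the gene's mean over the types; red is above that mean and blue below, with colours saturating at 3. The darkest red cells are Slc7a2 and Slc7a8 in macrophages and Slc7a11 in neutrophils, and the darkest blue is Slc38a1 in neutrophils.

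Of the cationic amino acid carriers and their relatives, Slc7a1 and Slc7a2 differed among the cell types at baseline by the F test, and Slc7a3, Slc7a4 and Slc7a14 did not pass. Slc7a2, an arginine transporter, had a baseline range of 27.5-fold. It reached a level of 7 on its 4 macrophage arrays alone, so this fold rests on a dim low end and is best read as a lower bound. Its macrophage arrays read 9.73, 9.86 and 9.82, and no array of another type at baseline exceeded 5.96. The macrophage excess over the mean of the other types was 4.41 (SE 0.12, adjusted p = 3.8e-25, limma). The other 8 types, from neutrophils at 5.64 to regulatory T cells at 5.02, formed an order in which no neighbours differed by the test. After interferon the single macrophage array read 10.2, a change of 0.39 that did not pass (adjusted p = 0.697, limma). Slc7a1, the widely expressed arginine and lysine carrier, differed by -1.23 between neutrophils and the mean of the other types (SE 0.17, adjusted p = 2.5e-07, limma).

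Slc7a11, the light chain of the cystine and glutamate exchanger, had a baseline range of 23.9-fold, also best read as a lower bound, since the 4 neutrophil arrays were the only ones to reach a level of 7. The 2 neutrophil arrays read 9.31 and 9.76, the dendritic cell arrays 6.91, 6.47 and 6.39, and the group means of the other types lay between 4.95 and 5.26. Neutrophils exceeded dendritic cells by 2.94 (adjusted p = 2.76e-13, limma) and dendritic cells exceeded the next type by 1.33 (adjusted p = 1.19e-06, limma), while no other neighbours differed by the test. Interferon arrays of neutrophils read 8.92 and 9.62 and overlapped the baseline arrays. The change in neutrophils was -0.27 (95% interval -0.74 to 0.21) and in dendritic cells -0.46 (-0.90 to -0.03), and neither passed. The bases before its start site are shown because they hold 2 copies of the amino acid response element, the sequence read by the ATF4 factor when amino acids run short. They are taken from RefSeq, build GRCm38.p6, chr3:50443594-50443813, minus strand, from 200 bases before to 20 after the start. Capitals mark, from left to right, a match to the gamma-activated site TTCNNNGAA and 2 matches to TGATGNAA, the second on the opposite strand.

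Slc7a11: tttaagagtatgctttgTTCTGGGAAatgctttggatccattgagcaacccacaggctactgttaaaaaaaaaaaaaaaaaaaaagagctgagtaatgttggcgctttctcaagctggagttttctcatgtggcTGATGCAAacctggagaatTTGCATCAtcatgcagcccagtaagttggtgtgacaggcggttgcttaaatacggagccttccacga

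A RefSeq window of 300 bases (250 before and 50 after a start) was found for 32 of the 43 genes, 43 windows in all. Both strands were searched for 4 motifs, with N for any base. TGATGNAA occurred in 4 of the 43 windows (9.3%), those of Slc7a11, Slc1a4 and 2 of Slc7a7, against 3.97% of all 32851 windows. The 2 Slc7a7 windows overlap and share a match, so that the same site is counted in both. TTCNNNGAA occurred in 4 (9.3%) against 8.3%, and the core of the interferon-stimulated response element (GAAA, any 2 bases, GAAA) in 0 against 3.44%. CACGTG, the E-box core, occurred in 7 (16.3%) against 7.15%. A match describes letters in this window and is no evidence of binding, and the lack of one says nothing about a factor elsewhere.

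The leucine exchangers and their heavy chain were next. Slc3a2, the heavy chain, ranged over 2.53-fold at baseline. Its neutrophil arrays read 10.03 and 10.15, below all other baseline arrays, of which the lowest read 10.63. The neutrophil difference from the other types was -1.0 (SE 0.15, adjusted p = 1.29e-06, limma). Interferon left no detectable mean change: 0.00, with a 95% interval from -0.13 to 0.14. Slc7a5 (LAT1), the main leucine carrier of activated T cells, was highest in CD8 T cells (mean 9.68), regulatory T cells (9.67) and CD4 T cells (9.45), which did not differ by the test as neighbours. It was lowest in neutrophils, where the arrays read 7.35 and 7.41, 0.59 below NK cells (adjusted p = 0.0326, limma). Slc7a6, which exchanges cationic for neutral amino acids, followed the same outline, from 9.06 in CD8 T cells to 6.44 in neutrophils, the latter 0.96 below macrophages (adjusted p = 0.00207, limma).

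Slc7a7 and Slc7a8, light chains of the same heavy chain, were highest in myeloid cells. Slc7a7 averaged 8.87 in macrophages, 8.29 in dendritic cells and 7.10 in neutrophils, and each of these steps passed (adjusted p = 0.0437 and 9.75e-05, limma). Slc7a8 (LAT2) read 10.06, 10.66 and 10.75 in the macrophage arrays, 2.72 above dendritic cells (adjusted p = 3.59e-11, limma). Below macrophages came dendritic cells (7.77), NKT cells (7.25) and neutrophils (6.71), whose neighbouring differences did not pass. Slc7a10, a further light chain, stayed between 6.33 and 7.02 on all 26 baseline arrays, and its level did not pass the F test (adjusted p = 0.365, limma).

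Of the glutamine and neutral amino acid carriers, Slc38a1 and Slc1a5 were lowest in neutrophils. Slc38a1, a sodium-coupled glutamine transporter, read 7.50 and 6.83 in neutrophils, while the means of the other types lay between 9.83 and 10.60 with no differing neighbours. The neutrophil difference was -2.98 (SE 0.22, adjusted p = 2.56e-13, limma). Slc1a5 (ASCT2), the exchanger that brings glutamine into proliferating cells, read 7.65 and 7.25 in neutrophils. It averaged 8.85 in macrophages, 0.97 below gamma-delta T cells (adjusted p = 0.000559, limma) and 1.40 above neutrophils (adjusted p = 1.35e-05, limma). Slc38a2, a neutral amino acid carrier that many cells induce when starved, was highest in dendritic cells at 11.94, 11.70 and 11.84, 1.10 above the mean of the other types (adjusted p = 1.07e-07, limma). Slc38a6, an orphan relative, averaged 9.34 in macrophages, 1.67 above dendritic cells (adjusted p = 4.14e-10, limma). Slc36a4 averaged 8.97 in macrophages, 0.90 above regulatory T cells (adjusted p = 0.00279, limma).

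After interferon most members did not pass, and more fell than rose. Averaged over the 9 cell types, 10 of the 43 genes fell (23.3%, against 17.5% of all genes) and 2 rose (4.65%, against 9.55% of all genes). The fitted change had the same sign in all 9 types for 5 genes below 0 (7.44% of all genes) and 1 above (3.9%). With gene-by-gene array weights, chosen after seeing the data, 12 fell and 8 rose. The median change of the 43 was -0.01, as was that of all genes. By size, the genes that fell were Slc43a2 (-1.26, SE 0.09), Slc38a1 (-0.77), Slc36a1 (-0.76), Slc36a4 (-0.54), Slc1a5 (-0.45), Slc38a10 (-0.43), Slc38a6 (-0.32), Slc38a7 (-0.25), Slc38a9 (-0.25) and Slc36a3 (-0.13). Slc43a3, a purine base transporter by function, rose by 0.27 and Slc7a9, the light chain of the kidney cystine carrier, by 0.21. Slc7a9, the gene above 0 in all 9 types, was dim and reached a level of 7 on 0 arrays, and Slc36a3 did on 3. With dim genes left out, 10 fell and 1 rose (28.6% and 12.1% of the genes kept). With a term for the preparation wording, 5 of the 12 genes named no longer passed: Slc36a3, Slc38a7, Slc38a9, Slc43a3 (0.02) and Slc7a9. Slc36a3 (adjusted p up to 0.107) and Slc38a9 (up to 0.0963) also missed the threshold without any 1 of 31 and 25 arrays respectively, by limma.

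**Figure D2:**
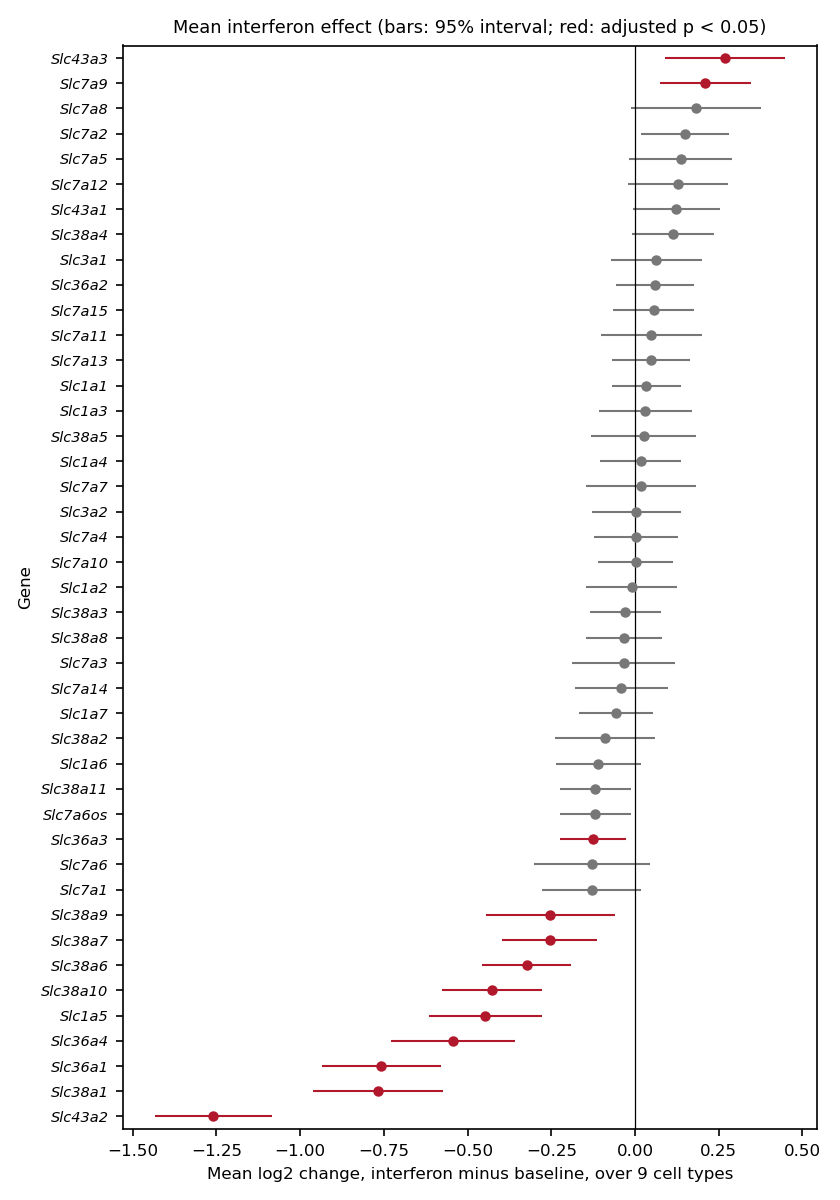
Mean log2 change (interferon minus baseline) over the 9 cell types for the 43 genes, with 95% intervals from limma; red points passed at adjusted p under 0.05. Slc43a2 lies apart at -1.26, and 10 of the 12 red points lie below 0.

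Slc43a2 (LAT4), a facilitative carrier that lets leucine and other large neutral amino acids leave or enter along their gradient, fell in 8 of the 9 cell types, and its fitted change was below 0 in all 9. It was the only member with a mean fall of 2-fold or more, which 0.0658% of all genes had. Its baseline level was highest in macrophages and neutrophils and lowest in NK cells, where the arrays read 7.88, 7.54 and 7.95. The 2 RefSeq start sites of this gene are shown because it changed most. They lie at chr11:75531494-75531713 and chr11:75531912-75532131, plus strand, GRCm38.p6, each from 200 bases before to 20 after the start, and neither holds any of the 4 motifs.

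Slc43a2, first start: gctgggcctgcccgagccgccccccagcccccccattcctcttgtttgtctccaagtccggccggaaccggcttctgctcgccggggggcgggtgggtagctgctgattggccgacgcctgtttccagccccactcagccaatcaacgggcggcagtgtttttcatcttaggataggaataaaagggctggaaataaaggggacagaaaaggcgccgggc

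Slc43a2, second start: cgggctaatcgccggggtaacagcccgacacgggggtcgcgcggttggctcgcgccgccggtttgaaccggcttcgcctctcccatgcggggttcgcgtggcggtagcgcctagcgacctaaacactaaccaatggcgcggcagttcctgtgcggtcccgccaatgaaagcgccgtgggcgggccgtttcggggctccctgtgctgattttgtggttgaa

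In neutrophils Slc43a2 went from 9.58 and 9.45 to 7.01 and 7.47, a change of -2.28 (SE 0.27, adjusted p = 1.65e-07, limma). In dendritic cells it went from 9.37, 9.18 and 8.96 to 7.73 and 7.24, a change of -1.69 (SE 0.25, adjusted p = 8.01e-06, limma). The groups did not overlap in either type. Macrophages went from 9.84, 9.55 and 9.72 to 8.52 on the single interferon array (-1.18, adjusted p = 0.0358, limma). NK cells went to 6.24 and 7.06 (-1.14, adjusted p = 0.00403, limma). NKT cells went from 9.12, 8.65 and 9.01 to 7.95 and 7.67 (-1.12, adjusted p = 0.00278, limma). Every interferon array again lay below every baseline array of its type. This was so for 24.7% of all genes in neutrophils, 26.1% in dendritic cells, 23.1% in macrophages, 14.2% in NK cells and 28.6% in NKT cells.

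Among the other T cells, CD8 T cells went from 9.21, 8.99 and 9.17 to 7.90 and 8.18 for Slc43a2 (-1.08, adjusted p = 0.00857, limma). Gamma-delta T cells went from 8.09, 8.84 and 9.07 to 7.89 and 7.42 (-1.01, adjusted p = 0.00924, limma). CD4 T cells went from 8.63, 8.80 and 8.25 to 7.89 and 7.24 (-0.99, adjusted p = 0.0268, limma). On the gamma-delta arrays the sum of 6 B cell markers, 6183, 2290 and 9693 and then 9565 and 2475, did not separate the groups. That of 7 dendritic cell markers, with 1 passing as lower, was 3017, 2613 and 3572 and then 1726 and 1630. On the NK arrays the dendritic cell marker sum was 4173, 3252 and 4361 and then 2130 and 1903, also with 1 passing as lower. Without overlap, this sum also fell in CD4 (5522, 5135 and 5444, then 3586 and 4657) and CD8 T cells (5111, 5272 and 4640, then 3632 and 3559). It did so in regulatory T cells too (3913, 3872 and 3549, then 2667 and 2951), and no marker passed in any of these types. Its baseline values in CD4 and CD8 T cells exceeded those in gamma-delta T and NK cells, so it is not particular to dendritic cells. On the dendritic cell arrays the B cell marker sum was 2146, 1725 and 1424 and then 1086 and 1019, with 1 passing as lower. The part of these sums in the Slc43a2 values was not tested. Regulatory T cells, at 8.89, 8.74 and 9.01 and then 8.12 and 7.95, changed by -0.84, which did not pass (adjusted p = 0.103, limma). The arrays did not overlap in these types either. Lower without overlap were 18.9% of all genes in CD8, 13% in gamma-delta, 11.6% in CD4 and 18.5% in regulatory T cells. With baseline array 3 alone as the baseline, the Slc43a2 change was -1.48 in dendritic cells, -1.41 in gamma-delta T cells and -1.30 in NK cells. It was -1.20 in NKT cells, -1.19 in macrophages, -1.13 in CD8 T cells and -0.68 in CD4 T cells. The neutrophil and dendritic cell calls held without any 1 array. The others were lost without CD4 baseline array 1 (adjusted p = 0.109) or 2 (0.183) or interferon array 2 (0.38), CD8 interferon array 1 (0.199), gamma-delta interferon array 2 (0.257) or baseline array 3 (0.0651), NK interferon array 1 (0.292), NKT interferon array 2 (0.0728), or macrophage baseline array 1 (0.0817) or 3 (0.0584), all by limma.

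**Figure D3:**
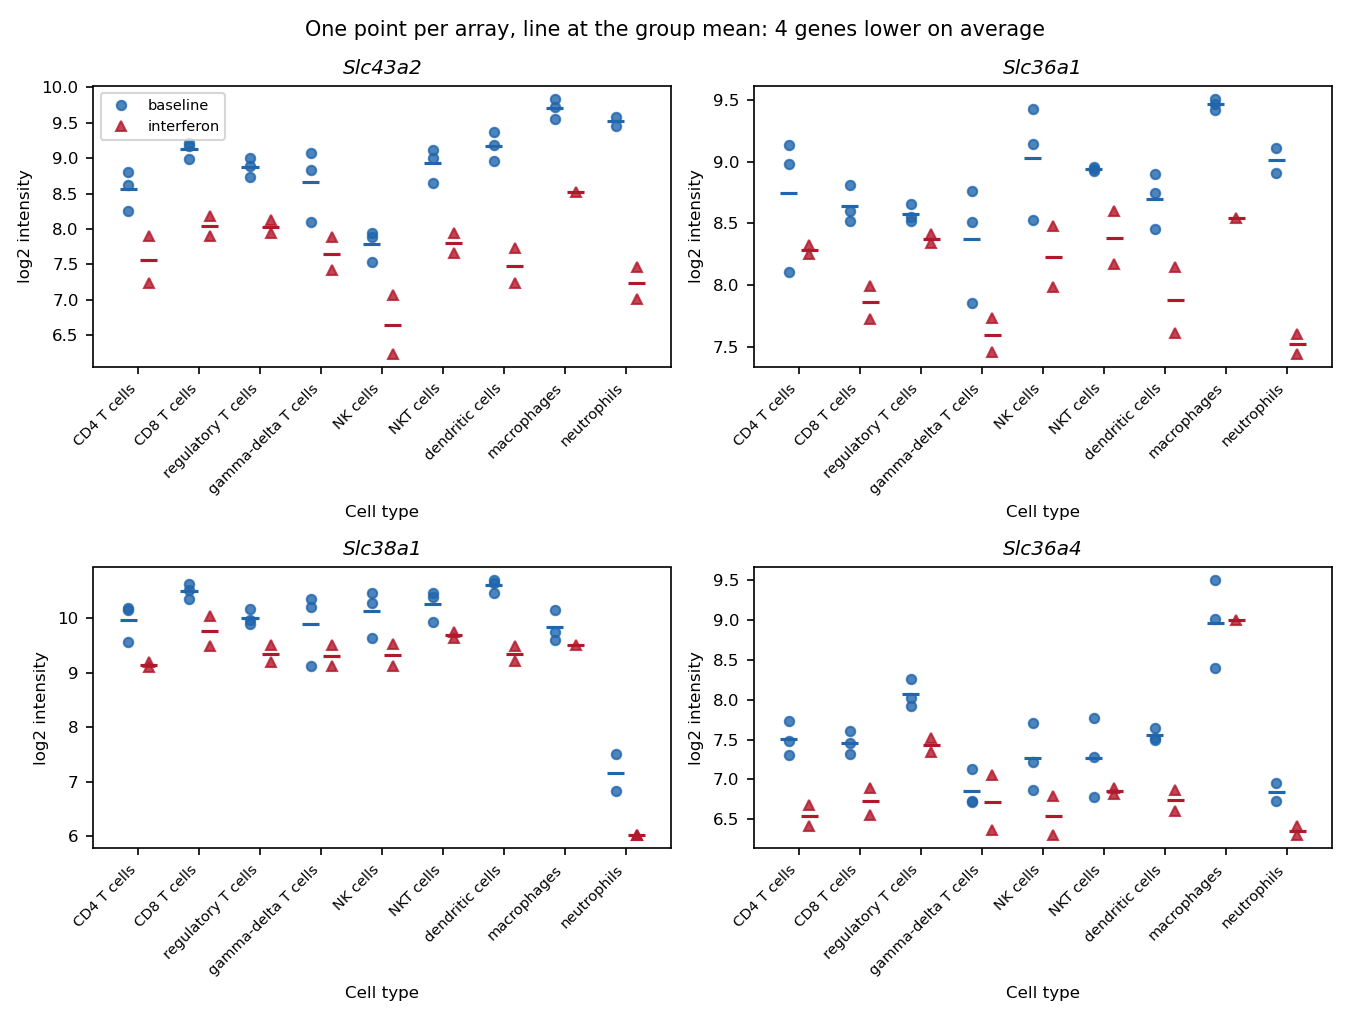
Log2 intensity of Slc43a2, Slc36a1, Slc38a1 and Slc36a4 on each array by cell type (blue circles baseline, red triangles interferon, lines at the group means). For Slc43a2 the red points lie below all blue points in every type, with the widest gap in neutrophils (-2.28); Slc38a1 starts far lower in neutrophils than elsewhere.

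The lysosomal carriers Slc36a1 and Slc36a4 changed on average, and in few types alone. Slc36a1 (PAT1), which carries small amino acids out of the lysosome with protons, had a fitted change below 0 in all 9 types, from -1.49 in neutrophils to -0.20 in regulatory T cells. In neutrophils it went from 9.11 and 8.91 to 7.44 and 7.60 (SE 0.27, adjusted p = 0.000207, limma), with no overlap, and the call held without any 1 array. In dendritic cells it went from 8.75, 8.90 and 8.46 to 8.14 and 7.61 (-0.82, adjusted p = 0.039, limma). That call was lost without baseline array 1 (adjusted p = 0.113) or 2 (0.177) or interferon array 2 (0.676), and with the preparation term (0.107), by limma. In CD4 T cells the baseline arrays read 8.98, 9.14 and 8.11 and the interferon arrays 8.25 and 8.32, so that they overlapped. The window around its start is shown because it holds 2 copies of CACGTG, the E-box core that the lysosomal factors TFEB and TFE3 read. The first copy lies before the start and the second spans it. The window is chr11:55204140-55204359, plus strand, GRCm38.p6, from 200 bases before to 20 after the start, with the matches in capitals.

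Slc36a1: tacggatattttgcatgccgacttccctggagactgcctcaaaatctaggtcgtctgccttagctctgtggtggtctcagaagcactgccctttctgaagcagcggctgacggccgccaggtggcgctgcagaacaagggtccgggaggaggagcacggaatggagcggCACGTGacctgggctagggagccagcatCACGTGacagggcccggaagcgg

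Slc36a4, a relative with high affinity for proline and tryptophan, fell in CD4 T cells, from 7.48, 7.74 and 7.31 to 6.41 and 6.68 (-0.96, adjusted p = 0.0486, limma). The arrays did not overlap, but the call was lost without any 1 of 29 arrays, with adjusted p up to 0.439 by limma. It was also lost with the replicate number as a fixed block (-0.85, adjusted p = 0.0577, limma) or a random block (adjusted p = 0.0545, limma). Its macrophage arrays read 8.39, 9.01 and 9.50 at baseline and 9.01 after interferon. The CACGTG hexamer also stood before Slc38a7, which fell on average, and before Slc1a6, Slc1a7, Slc38a5, Slc43a1 and Slc7a14, whose mean changes did not pass. Slc38a7, a lysosomal glutamine carrier, had a mean change of -0.25 (adjusted p = 0.00474, limma). Slc38a9, the lysosomal arginine sensor, was highest in dendritic cells, 1.08 above the mean of the other types (adjusted p = 1.51e-05, limma). Its second probe set gave a mean interferon change of -0.07 against -0.25 for the brighter one.

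On its brighter probe set, Slc38a1 had a fitted change below 0 in all 9 types, and it fell in dendritic cells and neutrophils. The dimmer probe set changed by between -1.42 and 0.47 by type, with a mean of -0.36 against -0.77, so its sign was not the same in all types. In dendritic cells it went from 10.70, 10.64 and 10.46 to 9.49 and 9.22 (-1.25, SE 0.27, adjusted p = 0.00228, limma). In neutrophils it went from 7.50 and 6.83 to 6.02 and 6.01 (-1.15, SE 0.30, adjusted p = 0.0089, limma). Neither pair of groups overlapped. The dendritic cell call was lost without interferon array 2 (adjusted p = 0.0928), and the neutrophil call without baseline array 1 (0.214) or interferon array 1 (0.0692), by limma. With its 2 probe sets averaged, the neutrophil change was -0.53 (adjusted p = 0.412, limma), since the dimmer one changed by 0.09 in neutrophils, with no fall there. Slc1a5 fell on average without passing in any 1 type, from -0.66 in dendritic cells to -0.14 in regulatory T cells. Slc38a10 passed in neutrophils (-0.78, adjusted p = 0.0223, limma), from 8.43 and 8.61 to 7.53 and 7.96, a call lost without baseline array 1 (0.0663) or 2 (0.183) or interferon array 1 (0.371), and with the preparation term (-0.67, adjusted p = 0.0881).

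Slc38a2 was the only member whose interferon change differed among the cell types by limma's F test (adjusted p = 0.0112), against 4.16% of all genes. In neutrophils it went from 11.14 and 11.23 to 10.27 and 10.24, a change of -0.93 (SE 0.23, adjusted p = 0.00528, limma). In NKT cells it went the other way, from 9.81, 10.23 and 10.53 to 10.73 and 10.98, a change of 0.67 (SE 0.21, adjusted p = 0.0439, limma). The groups did not overlap in either type. Dendritic cells went from 11.94, 11.70 and 11.84 to 11.32 and 11.33 (-0.50), which did not pass (adjusted p = 0.197, limma). The neutrophil change minus the mean of the other 8 types was -0.95 (SE 0.24, adjusted p = 0.0169, limma). Members with such a lower change in neutrophils were 2, Slc38a2 and Slc43a2, against 2.35% of all genes. The neutrophil call was lost without baseline array 2 (adjusted p = 0.0613), and the difference without any 1 of the 4 neutrophil arrays (0.0545 to 0.125), by limma. The NKT call was lost without any 1 of 15 arrays, with adjusted p up to 0.318, and with the preparation term (0.49, adjusted p = 0.152). With baseline array 3 alone as the baseline, and so without neutrophils, the F test of Slc38a2 gave an adjusted p of 0.655 by limma.

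**Figure D4:**
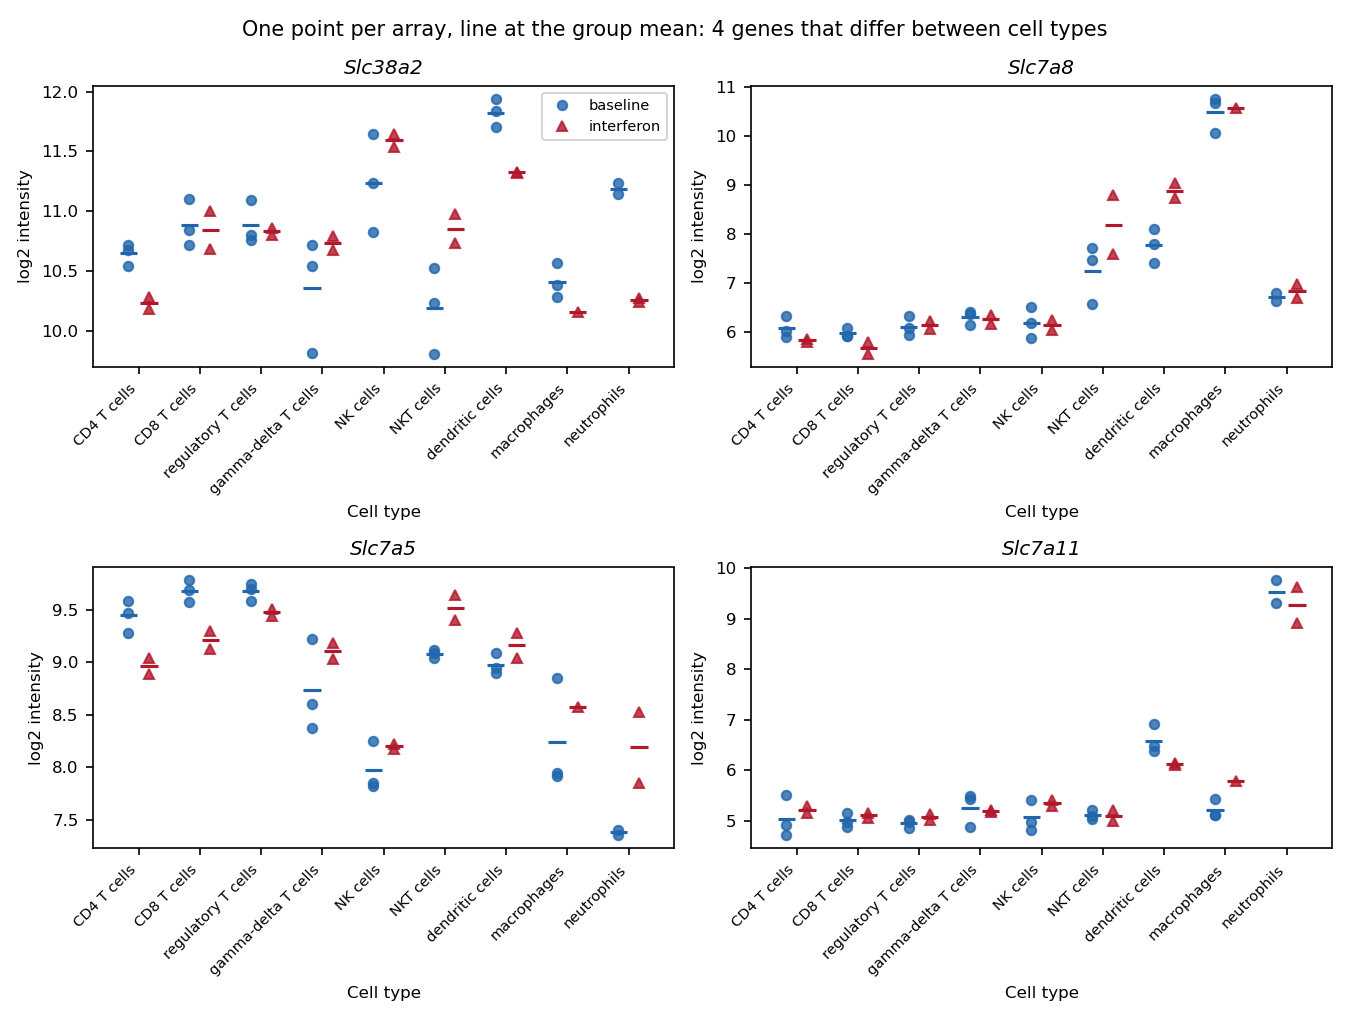
Log2 intensity of Slc38a2, Slc7a8, Slc7a5 and Slc7a11 on each array by cell type (blue circles baseline, red triangles interferon, lines at the group means). Slc38a2 is lower after interferon in neutrophils and higher in NKT cells, Slc7a8 is higher in dendritic cells, and Slc7a11 is far brighter in neutrophils than in any other type under both conditions.

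Slc7a8 rose in dendritic cells, from 7.80, 7.40 and 8.10 to 9.04 and 8.72 (1.12, SE 0.27, adjusted p = 0.00682, limma), with no overlap. That was 1.05 more than the mean of the other types (adjusted p = 0.0496, limma), where 1.49% of all genes passed as higher. With baseline array 3 alone as the baseline, the rise in dendritic cells was 0.78. The rise was lost without baseline array 2 (adjusted p = 0.064) or interferon array 1 (0.143), and the difference from the other types without any 1 of 32 arrays (up to 0.489), by limma. In NKT cells it passed too, but the arrays overlapped: 7.47, 6.57 and 7.72 at baseline and 8.79 and 7.59 after interferon (0.94, adjusted p = 0.0278, limma). That call was lost without baseline array 2 (0.208) or interferon array 1 (0.674) and with the preparation term (0.0787). The summed intensity of 7 measured macrophage markers, of which 2 passed as higher, was 3326, 1033 and 2067 on the same NKT baseline arrays and 5787 and 2444 on the interferon arrays, and its part in the Slc7a8 value was not tested. In dendritic cells that sum was 3769, 2976 and 2915 at baseline and 2664 and 3253 after interferon. Macrophages, at 10.57 on the interferon array, lay within their baseline range for Slc7a8.

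Slc7a5 rose in neutrophils, from 7.35 and 7.41 to 7.85 and 8.53 (0.81, SE 0.24, adjusted p = 0.0207, limma). The arrays did not overlap, though the 2 interferon arrays lay far apart. The call was lost without baseline array 1 (adjusted p = 0.125) or 2 (0.0934) or interferon array 2 (0.252), and with the preparation term (0.154), by limma. In CD4 and CD8 T cells its changes were -0.48 and -0.47 and did not pass, with no overlap of the arrays. Whether the change differed among types missed the threshold (F test, adjusted p = 0.0654, limma). For the partner Slc3a2 the neutrophil arrays read 10.05 and 10.46 after interferon (0.17, 95% interval -0.25 to 0.59), and for Slc7a6 the lowest change was -0.59, in dendritic cells. Neither passed in any type.

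Slc43a1 (LAT3), a relative of Slc43a2, rose in regulatory T cells, from 7.03, 6.86 and 7.07 to 7.70 and 8.06 (0.89, SE 0.18, adjusted p = 0.00285, limma), with no overlap. The call was lost without interferon array 2 (0.72, adjusted p = 0.325, limma). It was the only member that passed as higher there, against 1.38% of all genes. Its change there was 0.81 with baseline array 3 alone as the baseline. The last neutrophil calls were small or dim: Slc7a12 (0.73, adjusted p = 0.033), from 3.71 and 3.73 to 4.90 and 4.0, and Slc7a6os (-0.52, adjusted p = 0.0357), both by limma. Both were lost without baseline array 1 (0.151 and 0.125) or 2 (0.14 and 0.19) or interferon array 1 (0.8 and 0.299), and that of Slc7a6os also with the preparation term (adjusted p = 0.0619).

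In neutrophils 6 members fell (14% of the 43, against 7.49% of all genes) and 2 rose (4.65%, against 4.21%). In dendritic cells 3 fell (2.89% of all genes) and 1 rose (3.72%). In NKT cells 1 fell (3.68%) and 2 rose (4.48%). In CD4 T cells 2 fell (0.385%). The single member that fell in macrophages (0.557%), NK cells (1.83%), CD8 T cells (1.32%) and gamma-delta T cells (3.35%) was Slc43a2. Of 387 comparisons of a member in a type, 22 passed, 16 lower and 6 higher, and 11 members supplied them. The number of members that passed depended on single arrays: it was 5 without CD4 baseline array 3, 4 without gamma-delta baseline array 1, 4 without NK baseline array 2, 1 without NKT baseline array 2, 2 without dendritic cell baseline array 2 and 3 without neutrophil baseline array 1. The order of the types by this number also turned with each type fitted alone, which gave 12 in dendritic cells and 4 in neutrophils. On the neutrophil arrays the summed intensity of 6 measured B cell markers was 4155 and 2365 at baseline and 544 and 483 after interferon, with 4 of the 6 passing as lower. The sum of 7 dendritic cell markers there was 2175 and 2151 at baseline and 963 and 1271 after interferon, with 2 passing as lower. The sum of 7 macrophage markers there was 3198 and 3225 at baseline and 2457 and 4096 after interferon. That of 4 plasma cell markers was 2213 and 2208 and then 2280 and 3854. In each of these 2 lists 1 marker passed as higher and 1 as lower. The part of any of these lists in the neutrophil values, including the rise of Slc7a5, was not tested. With neutrophils left out of the mean, Slc43a2 averaged -1.13, Slc38a1 -0.72 and Slc36a1 -0.67, and all 3 passed.

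**Figure D5:**
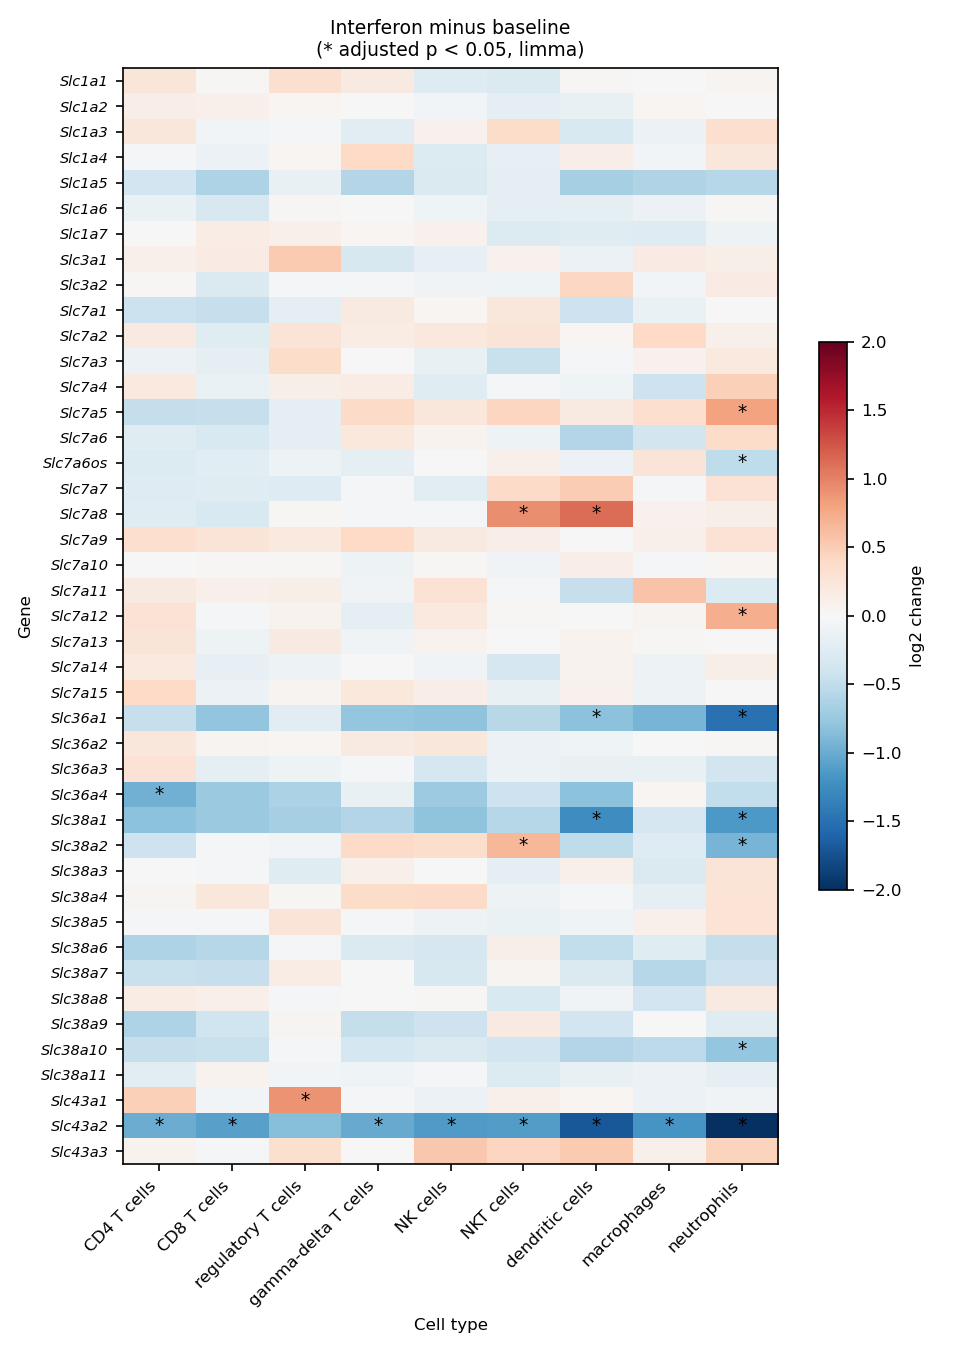
Log2 change (interferon minus baseline) of each of the 43 genes (rows) in 9 cell types (columns), red higher and blue lower, colours saturating at 2; asterisks mark adjusted p under 0.05. Asterisks fill the Slc43a2 row except in regulatory T cells, and the neutrophil column holds 8 of the 22.

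The other 25 members passed neither in a cell type nor on average, with mean changes between -0.13 and 0.15. Of these, 10 passed the filter on dim genes. They were the glutamate and neutral carriers Slc1a1, Slc1a2, Slc1a3, Slc1a4, Slc1a6 and Slc1a7, the heavy chains Slc3a1 and Slc3a2, the cationic carriers and relatives Slc7a1, Slc7a2, Slc7a3, Slc7a4 and Slc7a14, the exchanger light chains Slc7a6, Slc7a7, Slc7a10, Slc7a11, Slc7a13 and Slc7a15, and Slc36a2, Slc38a3, Slc38a4, Slc38a5, Slc38a8 and Slc38a11. Slc7a7 changed by 0.52 in dendritic cells, from 8.32, 8.22 and 8.33 to 8.61 and 9.0, with no overlap, but did not pass (adjusted p = 0.251, limma).

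Other genes of amino acid handling gave a background for these values. In a list of lysosomal amino acid sensing and mTORC1 genes, 18 of 36 measured genes fell on average (17.5% of all genes did), with a median of -0.18 against -0.01 for all genes. Sesn1, a leucine sensor family member, fell most on average (-1.02, adjusted p = 6.1e-13, limma). In neutrophils 9 of the 36 fell (7.49% of all genes), and the 5 that fell by 2-fold or more were Fnip2 (-1.85), Sesn2 (-1.79), Flcn (-1.24), Tfeb (-1.11) and Tfe3 (-1.11), which form or feed the lysosomal branch of this pathway. In the amino acid response list 9 of 28 fell on average and 2 rose (17.5% and 9.55% of all genes). In neutrophils the 3 that fell by 2-fold or more were Chac1 (-1.96), Sesn2 and Cebpb (-1.35), and Atf3, also an immediate early gene, rose by 1.51. Atf3 rose in dendritic cells (2.42), macrophages (1.57, on the single interferon array) and NKT cells (1.35) as well.

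The shares of all genes that rose and fell on average, 9.55% and 17.5%, are the background for the counts that follow. Of 29 other amino acid carriers, 4 rose and 6 fell on average. Slc25a22, a mitochondrial glutamate carrier, rose by 1.73 on average (adjusted p = 1.24e-18, limma), from 1.16 in CD4 T cells to 2.60 in neutrophils among the types where it passed at 2-fold. Slc15a3, a lysosomal histidine and peptide carrier, rose in NKT cells (1.23), dendritic cells (1.76) and neutrophils (1.57), while its relative Slc15a4 fell in neutrophils (-1.45). Of 17 cytosolic aminoacyl-tRNA synthetases, 4 rose and 2 fell on average. Wars, the tryptophan enzyme, rose by 1.79 in neutrophils and Sars, the serine enzyme, changed by -1.22 there (adjusted p = 9.35e-05 and 4.32e-05, limma). Wars also rose in gamma-delta T cells (1.03, adjusted p = 0.0227, limma). Of 33 amino acid enzymes 5 rose and 5 fell on average, with Kmo of the kynurenine pathway at 1.10. Of 15 genes of glutathione and cystine use, 1 rose and 5 fell, and in neutrophils Gpx1 changed by -1.24 (adjusted p = 0.00167, limma).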

How the data were processed

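RNA of 43 immune cell samples was hybridised to Affymetrix whole-transcript mouse gene arrays. The deposited values are linear intensities per probe set. Per the submitters' processing notes, the authors used Affymetrix Power Tools and RMA; the genome build is not given in the sources used here, nor is any version. RMA fits background and quantile-normalises the arrays together, so a shift common to all genes would be removed. Of 24922 probe sets, 21425 have 1 gene symbol in the platform annotation, 1399 several and 2098 none. The brightest of each symbol gave 19752 genes, tested as log2 intensity.

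One limma model (3.58.1, R 4.3.3) was fitted to 18 groups with 25 residual degrees of freedom, and p-values were Benjamini-Hochberg adjusted over all genes within a comparison. Contrasts were interferon minus baseline per type, their mean over the 9 types, 1 type minus the other 8, and the same for baseline levels, with F tests among types. The fit was tested on simulated data. Groups and replicate numbers come from sample titles. Same-numbered arrays deviated together in some types and not in others (correlations from -0.29 to 0.35), so numbers were not taken as pairs.

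The members and the gene lists were chosen with earlier results of these data known. All members may be named; per-array values are given for members that passed at 2-fold with interferon and for Slc3a2 and its partners, and for others where a call is described. The 10 genes with the widest baseline range have their order of levels described. Genes of other lists are named only where they passed at 2-fold, at most 5 per list and comparison, and not all that did so are named. Promoter windows were read from RefSeq (GRCm38.p6). Alternatives and leave-one-out fits are given in the closing section.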

Additional observations from a re-analysis of the deposited data

Results flagged for a closer look

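The tests of a difference between cell types that passed were 4. The interferon change of Slc38a2 differed among the types (F test, adjusted p = 0.0112, limma), and in neutrophils it was -0.95 relative to the mean of the other 8 types (SE 0.24, adjusted p = 0.0169, limma). For Slc43a2 the neutrophil change minus that of the other types was -1.14 (SE 0.29, adjusted p = 0.0145, limma). Leaving out neutrophil baseline array 1 (adjusted p = 0.142) or 2 (0.0665) or interferon array 1 (0.24) ended that call. For Slc7a8 the dendritic cell change minus that of the other types was 1.05 (SE 0.29, adjusted p = 0.0496, limma). No group had the 4 arrays that a search for outlying arrays needs.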

How the results depend on the processing

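Alternatives were run for the member changes that passed, not for changes that did not pass or for genes of the other lists. None of those run turned its direction. Of the 20 baseline differences of 2-fold or more, 13 could be given with baseline array 3 alone, 13 without neutrophils, 15 without macrophages and 20 under the other alternatives except types fitted alone, and all those given passed. Of the 22 calls in a type, 16 held with a preparation term, 21 with either replicate block and 12 with each type fitted alone. With baseline array 3 alone as the baseline, most of those that could be given no longer passed. Of the 12 mean calls, 7 held with a preparation term and 11 or 12 with a block. Among these calls, the blocks ended those of Slc36a4 in CD4 T cells and, as a fixed term, Slc7a9 on average. Of the 3 passing differences of 1 type from the others, 3 held with the fixed block, and 2 with the random block or without gamma-delta T cells. Not all of them held without the 4 arrays with conflicting labels. Without neutrophils only that of Slc7a8 in dendritic cells could be given, and it was lost. Averaging probe sets ended the mean call of Slc38a9. Of the 12 mean calls, 9 held without neutrophils, 10 without NKT cells, and 11 without gamma-delta T cells or without macrophages. Slc43a3 was among those lost without neutrophils, without NKT cells and without the 4 arrays with conflicting labels. In each of these settings it was not the only mean call lost.

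The counts of members that passed moved as follows. With the replicate number as a fixed block they were 2 in the F test of the interferon change, 1 in CD4 T cells and 2 in gamma-delta T cells; with a random block, 1 in CD4 T cells. With the preparation term they were 1 in NKT cells, 2 in NK cells, 2 in CD8 T cells and 2 in that F test. With baseline array 3 alone (7 residual degrees of freedom) they were 2 in NK cells, 2 in dendritic cells, and 0 in CD4, CD8, regulatory and NKT cells, macrophages, the differences between types and the F test. With each type fitted alone they were 12 in dendritic cells, 4 in neutrophils, 5 in CD8 T cells, 1 in NKT cells, 4 in regulatory T cells, and 0 in CD4 and gamma-delta T cells and macrophages. Leaving out dim genes gave 2 in gamma-delta T cells and moved the median of all genes to -0.06. Quantile normalisation gave 7 in dendritic cells, 2 in macrophages, 2 in NK cells, 1 in CD4 T cells, 2 in gamma-delta T cells, 7 differences and 4 in the F test. Without the 4 arrays with conflicting labels there were 0 in CD8 T cells, 0 in macrophages and 2 in the F test. Chosen after seeing the data, leaving out neutrophils gave 1 in CD4 T cells and 0 differences and 0 in the F test; leaving out NKT cells or macrophages gave 2 in the F test; leaving out gamma-delta T cells gave 2 in regulatory T cells, 3 in NK cells and 2 in the F test. The cause of these shifts was not tested.

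The planned array weights did not converge (a weight of 317 on 1 array) and were not used. Gene-by-gene weights, also added after seeing the data, gave 15, 6, 8, 2, 11, 11, 18 and 4 members in CD4, CD8, regulatory, gamma-delta, NK, NKT, dendritic cells and macrophages, 20 on average (8 higher, 12 lower), 25 differences, 15 in the F test and 40 at baseline, where 89.2% of all genes passed.

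Leaving out 1 array at a time gave 0 to 5 in CD4, 0 to 2 in CD8 and regulatory T cells, 0 to 4 in NK cells and gamma-delta T cells, 1 to 3 in NKT cells, 2 to 5 in dendritic cells, 0 to 1 in macrophages, 3 to 8 in neutrophils, 10 to 13 on average, 0 to 5 differences, 1 to 2 in the F test and 23 to 26 at baseline. Where 1 array was left in a group, it was assumed to vary like the others. With 1 to 3 arrays a group, small changes were not detectable.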
